A study of Mus musculus with 4 samples.

Results

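Brain fibroblasts were followed in single-cell RNA sequencing libraries of the mouse hemisphere after transient middle cerebral artery occlusion (tMCAO), a model of ischemic stroke with reperfusion. A fibroblast here was a cell with at least 1 UMI, or unique molecular identifier (1 counted RNA molecule), of at least 3 of the 5 genes Dcn, Col1a1, Col1a2, Lum and Col3a1. Cells with a UMI of more than 1 of Prg4, Nov and Slc47a1, of more than 1 of the smooth muscle genes Myh11, Lmod1, Pln and Cnn1, or of all 3 pericyte genes Kcnj8, Atp13a5 and Abcc9 were left out. The rule found 362 fibroblasts among the 54754 cells that had 200 to 6000 genes and at most 10% mitochondrial UMIs, out of 59429 deposited cells. All 4 libraries came from male C57/BL6 mice labelled 8 weeks old. They held the ipsilateral brain hemisphere on day 1, day 3 or day 7 after tMCAO, or after sham surgery, in which the artery was not occluded and which the series design places on day 7. Each group had 1 library, and the number of mice in it is not given in the sources used here. The cells were thus chosen by their measured UMIs of these 15 genes, whose levels are given as a description, and with 1 library per group no test was possible.

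Fibroblasts of the brain lie in the meninges and around larger vessels, where they make collagens, proteoglycans and other matrix. They also carry transporters and binding proteins for small molecules, among them retinoids, the vitamin A derivatives that meningeal cells supply to the brain. After injury, fibroblasts are known to add to the scar and to signal to immune cells through chemokines and complement.

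The sham library gave 51 fibroblasts, the day 1 library 186, the day 3 library 76 and the day 7 library 49. Of the 362 cells, 84 had exactly 3 of the 5 markers, 105 had 4 and 173 had all 5. Cells with 3 markers had a median of 10 marker UMIs in sham, 8 on day 1, 8 on day 3 and 6 on day 7. The 176 cells just outside the limit, with 2 markers, had medians of 2.5 in sham and 3 on each day. Of 786 cells with at least 3 markers, 328 were left out through Prg4, Nov and Slc47a1, 124 through the smooth muscle genes and 12 through the pericyte genes, some of them on more than 1 count.

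The libraries held 69392755 to 104023002 UMIs, and a fibroblast held a median of 5888 UMIs in sham, 4589.5 on day 1, 4104 on day 3 and 4466 on day 7. Library pairs shared 33 to 88 cell barcodes, none of them a fibroblast barcode in both. Scrublet, which simulates doublets, called 17 fibroblasts as doublets, 16 of them on day 1. Levels are given as CPM, the UMIs of a gene per 1000000 UMIs summed over all fibroblasts of a library. With 1 library per group, every interval is an exact 95% interval that covers counting error only. UMIs of 1 cell are not independent, and the spread between mice is not in these intervals.

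The share of fibroblasts among kept cells was 0.500% in sham (95% interval 0.373 to 0.657, exact binomial). It was 1.11% on day 1 (0.959 to 1.28), 2.22 times the sham share. On day 3 it was 0.673% (0.530 to 0.841), and on day 7 0.296% (0.219 to 0.391). The day 1 share was thus the highest of the 4 and the day 7 share the lowest, while the sham interval overlapped those of day 3 and day 7. How many cells of other kinds passed dissociation in each library also sets this share, and its part was not tested.

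**Figure D1:**
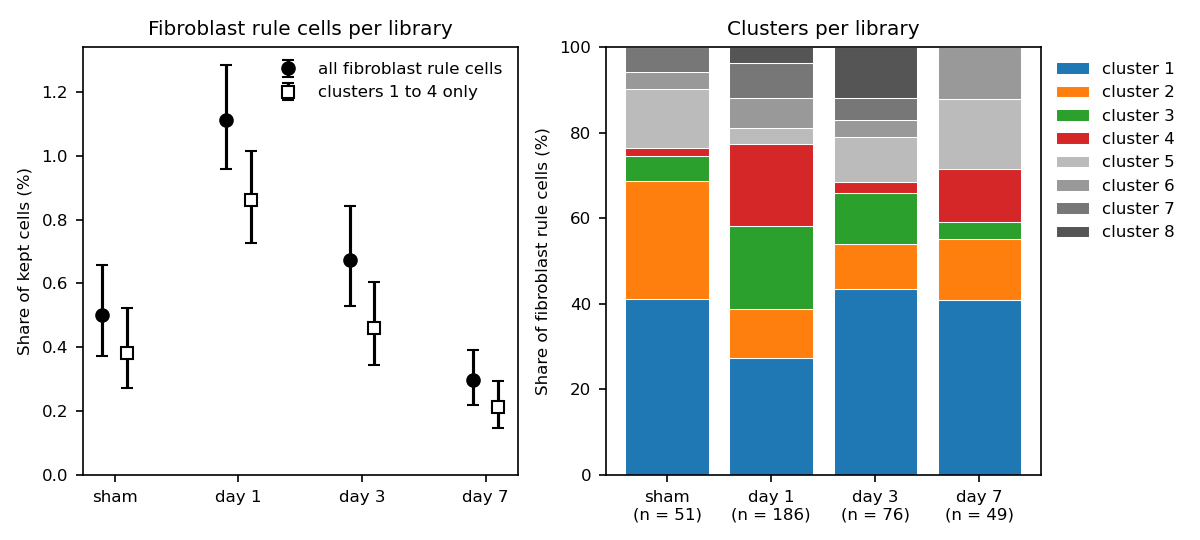
Left, the share of kept cells that met the fibroblast rule in each library (points, percent) with exact binomial 95% intervals (bars), for all 362 cells and for clusters 1 to 4 only. Right, the clusters of the fibroblasts of each library as a percent of its fibroblasts: clusters 3 and 4 made up more of the day 1 cells (19.4% each) than of the sham cells (5.88% and 1.96%).

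The fibroblasts fell into 8 clusters, formed without the genes of the rule. Clusters 1 to 4 held 270 cells and were led by fibroblast, transporter or matrix genes. Cluster 1 (125 cells) was led by Edn3, an endothelin, Fam180a and the collagens Col15a1 and Col12a1, and Slc6a13, a GABA and taurine transporter, was at 2245 CPM in it against 321 CPM in the other fibroblasts. Cluster 2 (50 cells) was led by Alpl, an alkaline phosphatase, Tcf21, a transcription factor, and Cygb, cytoglobin, with the actin-severing protein Gsn at 4805 against 470.2 CPM. Cluster 3 (50 cells) was led by Cyp26b1, which degrades retinoic acid, the transporter Slc22a2 and the adhesion protein Alcam, and it also held Ptgds, the prostaglandin D2 synthase of the meninges, at 137068 CPM. Cluster 4 (45 cells) was led by the metalloproteinase inhibitor Timp1, by Tcim and by Pmepa1, with elastin (Eln) and heme oxygenase (Hmox1) following. These genes set the clusters and are given as a description.

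The clusters were unevenly spread over the libraries. Cluster 1 held 41.2% of the sham fibroblasts, 27.4% of those of day 1, 43.4% of those of day 3 and 40.8% of those of day 7. Cluster 2 held 14 of the 51 sham cells (27.5%) and between 10.5% and 14.3% of the cells on the 3 days. Cluster 3 held 3, 36, 9 and 2 cells in sham and on days 1, 3 and 7, and cluster 4 held 1, 36, 2 and 6. With 1 library per group, a cluster filled mostly by 1 library cannot be told apart from that library.

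The leading genes of clusters 5 to 8 went against the label. Cluster 5 (30 cells) was led by the pericyte genes Rgs5, Higd1b and Notch3 and had a median of only 9 UMIs over the 5 markers. Cluster 6 (24 cells) was led by endothelial genes such as Ly6c1 and Cldn5, cluster 7 (22 cells, 8 of them called doublets) by the myelin genes Mag and Mbp, and cluster 8 (16 cells, 5 called doublets) by Ttr of the choroid plexus. Clusters 6, 7 and 8 had medians of 28.5, 24 and 12 UMIs over the 5 markers, against 24 in cluster 1. Clusters 5 to 8 together held 92 of the 362 cells, 23.5% of the sham, 22.6% of the day 1, 31.6% of the day 3 and 28.6% of the day 7 cells. Results below are for all fibroblasts unless clusters are named, and many are also given for clusters 1 to 4, which held 39, 144, 52 and 35 cells. The shares of clusters 1 to 4 were 2.25, 1.20 and 0.553 times the sham share on days 1, 3 and 7.

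**Figure D2:**
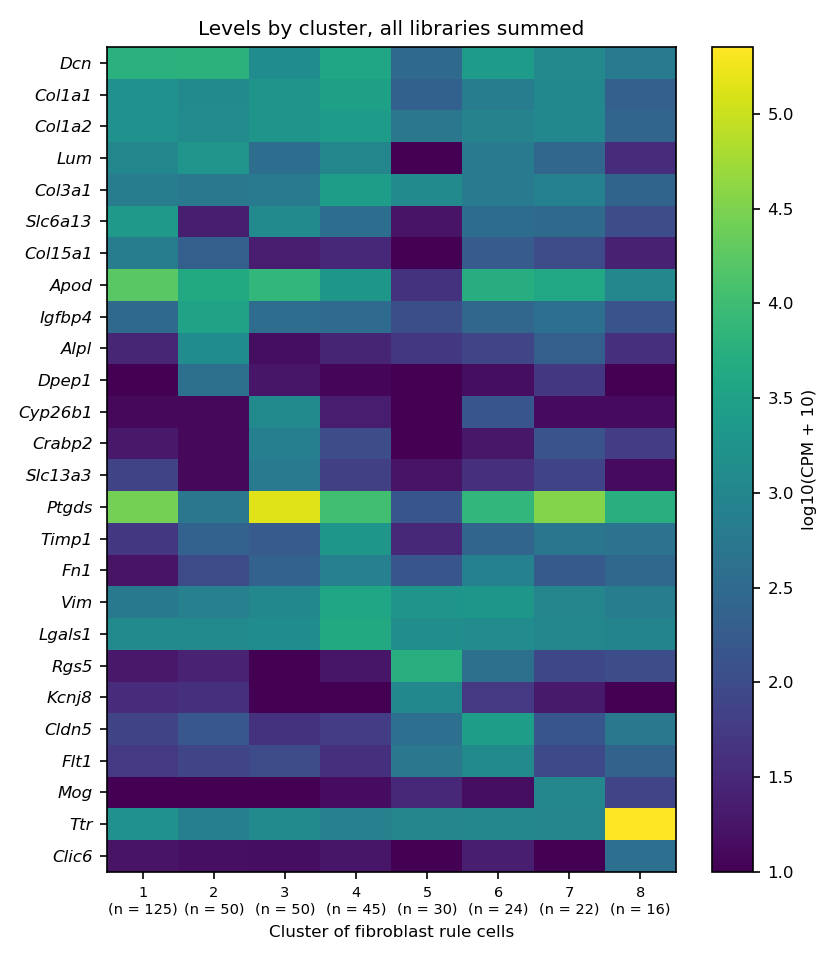
Level of 26 genes (rows) in the 8 clusters of fibroblasts (columns), summed over the 4 libraries and coloured as log10 of CPM with 10 added. The collagens and Dcn were in every cluster, and clusters 5 to 8 also carried Rgs5, Cldn5, Mog or Ttr.

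The marker lists of other cells were summed over all fibroblasts and over clusters 1 to 4. The summed level of 6 choroid plexus genes was 849 CPM in the sham fibroblasts, 35313 on day 1, 34508 on day 3 and 623 on day 7, but 917, 1179.8, 1327 and 656 CPM in clusters 1 to 4. The 8 oligodendrocyte genes summed to 3431, 3212, 2359 and 186 CPM over all fibroblasts and to 234, 118, 86.3 and 189 CPM in clusters 1 to 4. The 10 endothelial genes summed to 2478, 2559.7, 2718 and 3451 CPM over all fibroblasts in sham and on days 1, 3 and 7 and to between 1083 and 1317 CPM in clusters 1 to 4, against 18510 to 25874 CPM in endothelial cells, called from at least 3 of Cldn5, Flt1, Pecam1 and Cdh5. The 9 pericyte genes summed to 959, 445, 1348 and 1853 CPM over all fibroblasts and to 203, 208, 294 and 289 CPM in clusters 1 to 4. The microglia and astrocyte lists stood higher in clusters 1 to 4 in each library. The 11 genes of microglia and macrophages summed to 1319, 530.2, 382 and 135 CPM over all fibroblasts in sham and on days 1, 3 and 7 and to 1765, 837, 428 and 161 CPM in clusters 1 to 4. The 7 astrocyte genes summed to 725, 848, 1134 and 714 CPM over all fibroblasts and to 898, 1025, 1436 and 956 CPM in clusters 1 to 4. The 3 genes Prg4, Nov and Slc47a1, limited by the rule itself, summed to 14.1, 174, 100.4 and 280.3 CPM and to 11.5, 269.9, 58.9 and 422 CPM, lower in clusters 1 to 4 in sham and on day 3. The 5 erythrocyte genes summed to 21213, 10.2, 1147 and 36.4 CPM over all fibroblasts and to 28818, 15.5, 47.1 and 44.5 CPM in clusters 1 to 4, where only day 3 was lower. In sham, 98.3% of the C1qa, 99.3% of the Lyz2 and all of the C1qb and Tyrobp UMIs lay in 1 cell per gene. The part of these other RNAs in the changes below was measured only by leaving out cells or genes of other classes. With those genes left out, 111 of 124 called changes of named genes kept their call and 13 were weaker.

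Genes outside the rule that marked the fibroblasts most were ranked over all 362 cells. The ratio was the lowest fibroblast level over the highest level in any other cell class of the 4 libraries. That other level was set to 10 CPM where it was lower. The 10 genes with the highest ratio were Cemip, Lama1, Mfap4, Slc6a13, Inmt, Fmod, Col13a1, Col15a1, Slc22a6 and Moxd1. They were picked for standing above the other classes, so their levels are a description and no check of the label. Cemip, which breaks down hyaluronan, was at 361 CPM in sham, 177 CPM on day 1, 350.4 CPM on day 3 and 415 CPM on day 7, and no other class was above 6.91 CPM. In clusters 1 to 4 Cemip was at 476, 240.0, 557 and 528 CPM in the same order. Lama1, a laminin of basement membranes, was at 141 CPM in sham, 117 CPM on day 1, 228 CPM on day 3 and 178 CPM on day 7. Both stood above 100 CPM in every library. Slc6a13 was at 922 CPM in sham, 573 CPM on day 1, 703 CPM on day 3 and 597 CPM on day 7, at least 7.45 times its level in any other class. Slc22a6, an organic anion transporter, was at 116 CPM in sham, 153 CPM on day 1, 281 CPM on day 3 and 91.0 CPM on day 7, and its day 3 level was 2.43 (95% interval 1.70 to 3.55) times that of sham.

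Changes were read against sham by a rule of size. A gene was called higher or lower when log2 of the ratio of its CPM, with 10 CPM added to both sides, reached 1 in either direction and the interval of the ratio left out 1, among genes with at least 50 CPM on the day or in sham. On day 1, 225 of 3840 genes were called higher (5.86%) and 316 lower (8.23%), but with median-ratio size factors the balance turned to 338 higher and 205 lower. On day 3, 226 of 4059 were higher (5.57%) and 179 lower (4.41%). On day 7, 435 of 4330 were higher (10%) and 208 lower (4.8%), and with median-ratio size factors 275 and 269. In clusters 1 to 4 the shares called higher were 7.95%, 8.87% and 10.3% and those called lower 7.34%, 3.55% and 4.27% on days 1, 3 and 7. The median log2 ratio over all ranked genes was -0.15, 0.07 and 0.09. Within cluster 1, 4.46%, 8.3% and 6.36% of ranked genes were called higher and 4.86%, 4.74% and 2.76% lower on the 3 days, and within cluster 2, 7.25%, 7.4% and 11.3% higher and 5.85%, 4.24% and 3.95% lower. Of the genes called higher over all fibroblasts, 126 of 225, 167 of 226 and 304 of 435 were under 50 CPM in sham. They were thus ranked only through the day on which they were high. Of those called lower, 206 of 316, 110 of 179 and 154 of 208 were under 50 CPM on the day and ranked only through sham. For that reason the counts given for gene lists are descriptions only. A call compares 2 libraries and carries no p-value.

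**Figure D3:**
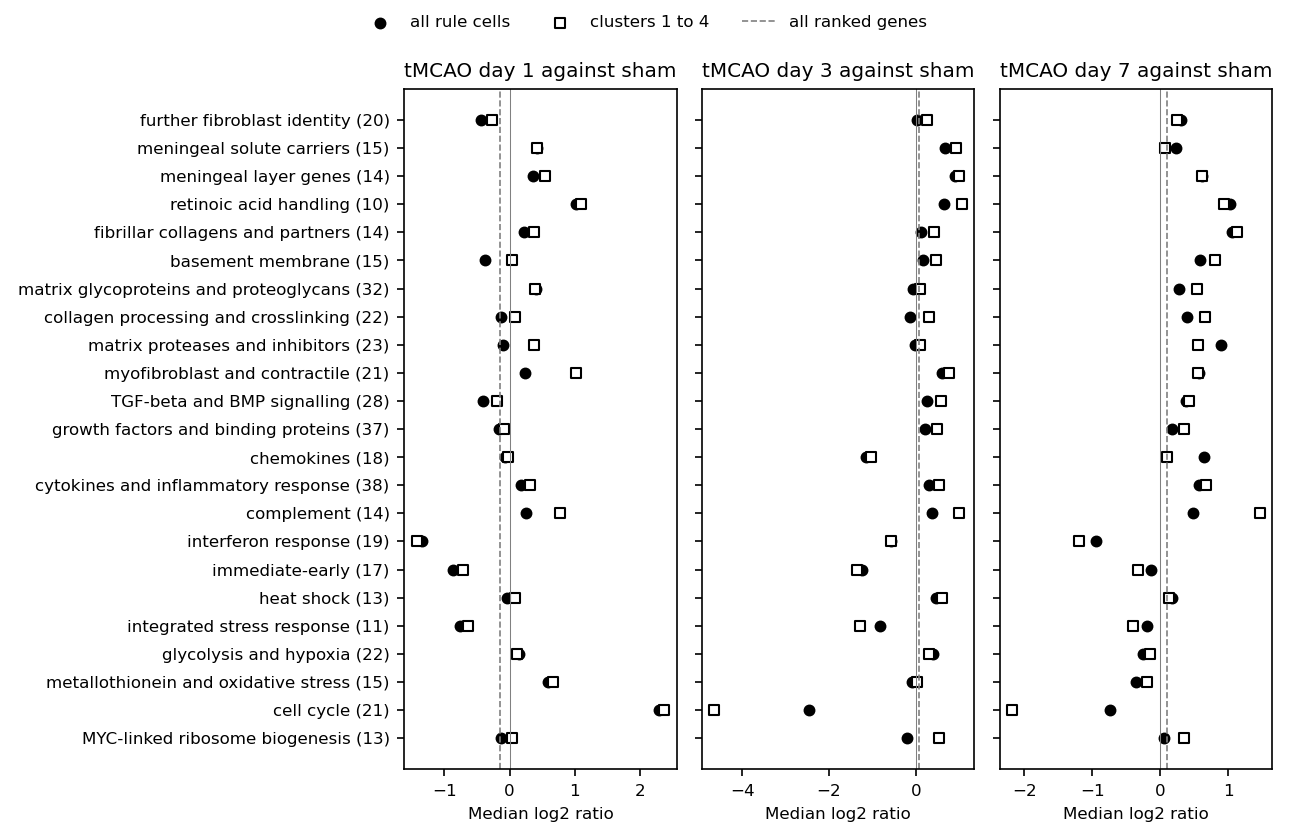
Median log2 ratio (10 CPM added) of the ranked genes of each of 23 gene lists on day 1, day 3 and day 7 against sham, in all fibroblasts (filled circles) and in clusters 1 to 4 (open squares), with the median of all ranked genes as a dashed line and the number of genes listed in brackets. The interferon list had a median of -1.34 on day 1 and the fibrillar collagen list a median of 1.05 on day 7.

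The 5 markers chose the cells, so their levels are a description only. Dcn, the collagen-binding proteoglycan decorin, was at 7294 CPM in sham, 2456 CPM on day 1, 2319 CPM on day 3 and 4205 CPM on day 7. Its ratio to sham was 0.337 (95% interval 0.320 to 0.355) on day 1 and 0.318 (0.296 to 0.342) on day 3. Sham stood above all 3 days, and day 7 lay between. Col1a1, the main chain of type I collagen, was at 1111 CPM in sham, 1521 CPM on day 1, 1149 CPM on day 3 and 2079 CPM on day 7. Col1a2, its partner chain, was at 1026, 1399, 1149 and 2181 CPM in sham and on days 1, 3 and 7. Its day 7 ratio was 2.12 (1.86 to 2.43), but in cells with at most 3000 genes the log2 ratio was -0.53. Col3a1, the collagen of type III fibrils, was at 572, 1289, 482 and 1358 CPM in the same order, with ratios of 2.25 (1.95 to 2.62) on day 1 and 2.37 (1.99 to 2.83) on day 7. For Col3a1, the log2 ratio of day 7 turned to -0.79 in cells with at most 3000 genes and to -0.26 after thinning to 1000 UMIs. Lum, the proteoglycan lumican, was at 1026, 753, 766 and 677 CPM. On day 1, the 3 collagen chains stood above and Dcn and Lum below their sham levels.

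Among genes with a UMI in sham, the largest rise on day 1 was that of Timp1, which inhibits matrix metalloproteinases. Timp1 had 3 UMIs in the sham fibroblasts and 1281 on day 1, which is 8.46 against 930.5 CPM, a ratio of 110.0 (95% interval 37.6 to 534). It stayed at 359 CPM on day 3 and 87.4 CPM on day 7. The day 1 UMIs came from 76 of 186 cells, with 21.1% of them in the top cell, and Timp1 also led cluster 4. After thinning every cell to 1000 UMIs, 22.5% of the day 1 fibroblasts had a Timp1 UMI, against 1.40% of the endothelial cells. On days 1 and 3 the call held under each of 16 other settings, whereas on day 7, where 7 cells carried all 24 UMIs, the log2 ratio turned to -0.08 in cells with at most 3000 genes.

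Other secreted and matrix proteins were also called higher on day 1. Fn1, fibronectin, was at 33.8 CPM in sham, 349 CPM on day 1, 225 CPM on day 3 and 728 CPM on day 7. Its ratio to sham was 10.3 (95% interval 5.86 to 20.1) on day 1 and 21.5 (12.1 to 42.4) on day 7, and both calls held under all 16 settings. Endothelial cells carried Fn1 as well, at 571 CPM in sham and 897 CPM on day 7, and after thinning 18.4% of day 7 fibroblasts had a UMI against 56.4% of endothelial cells, a share below that of a cell type that makes Fn1 itself. In clusters 1 to 4 Fn1 was at 19.2, 400.1, 129.5 and 539 CPM in sham and on days 1, 3 and 7. It was also a leading gene of cluster 4, which held 1 sham and 36 day 1 cells. Fgfbp1, which binds and releases fibroblast growth factors, had no UMI in sham and was at 153, 42.4 and 215 CPM on days 1, 3 and 7. Against a floor of 3 UMIs in sham it was at least 18.0-fold higher on day 1 and at least 25.4-fold higher on day 7. Within cluster 1 it was at 418 CPM on day 1 and 461 CPM on day 7, and in cluster 2 it had no UMI in any library. Tnc, the matricellular protein tenascin C, had no UMI in sham and 138, 15.6 and 54.6 CPM on the 3 days. It was at least 16.3-fold higher on day 1, with 48.4% of its UMIs in 1 of 13 cells. Spp1, osteopontin, was at 1618, 4280.4, 2276 and 5228 CPM in sham and on days 1, 3 and 7. Its day 1 ratio of 2.65 (2.43 to 2.89) held under all 16 settings. On day 7, 68.5% of the Spp1 UMIs lay in 1 cell, and without the top cell of each gene the log2 ratio was 0.35.

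**Figure D4:**
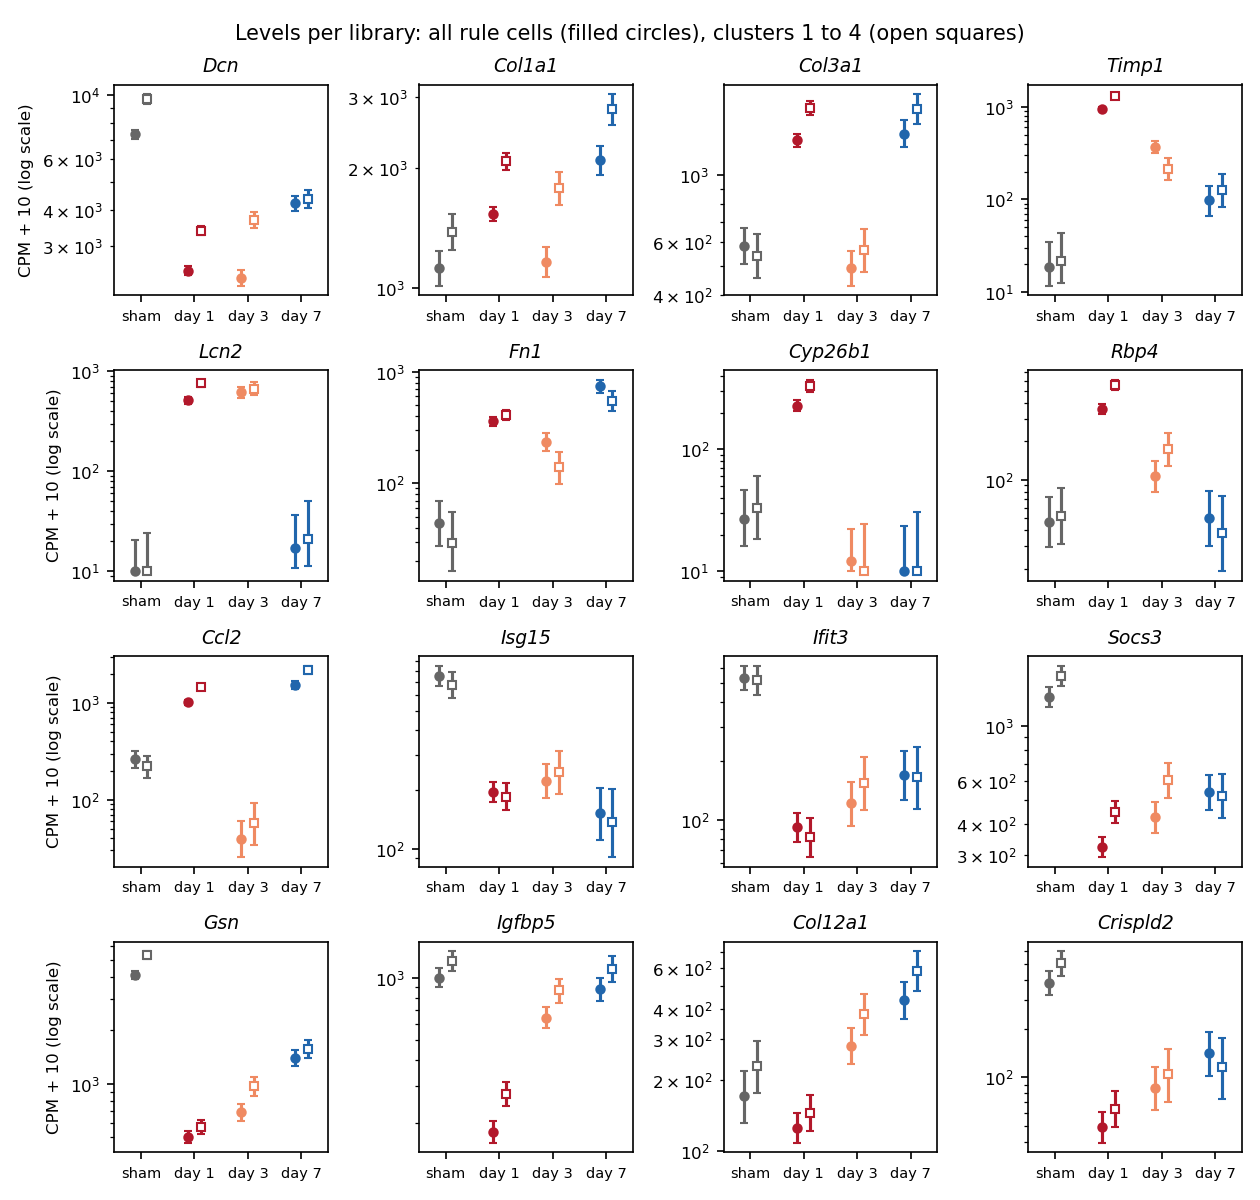
CPM with 10 added (log axis) of 16 genes in sham and on days 1, 3 and 7, for all fibroblasts (filled circles) and clusters 1 to 4 (open squares), with exact Poisson 95% intervals (bars). Timp1 rose from 8.46 to 930.5 CPM on day 1, while Isg15, Ifit3 and Gsn were highest in sham.

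Lcn2, the iron-siderophore binding protein lipocalin 2, had no UMI in the 51 sham fibroblasts. It was at 502 CPM on day 1, 605 CPM on day 3 and 7.28 CPM on day 7. Against the floor of 3 UMIs it was at least 59.3-fold higher on day 1 and at least 71.5-fold higher on day 3. On day 1, 34 cells carried it, with 27.1% of the UMIs in the top cell, and on day 3, 18 cells carried it, with 48.0% in the top cell. Endothelial cells of the same libraries were at 55.5 CPM in sham, 143 on day 1 and 2863 on day 3. After thinning, 15.1% of day 3 fibroblasts had a UMI against 24.0% of endothelial cells, so the fibroblast share did not exceed the endothelial one on that day. On day 1 the order was the other way, with 9.55% of fibroblasts against 6.11%. In cluster 2, Lcn2 was at 1573 CPM on day 1 and 2022 CPM on day 3, compared with 115 and 10.1 CPM in cluster 1.

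Some genes that handle retinoids were called higher on each day. Of the 10 listed, 7 were ranked on day 1 and 4 of these called higher, 3 of them under 50 CPM in sham. On day 3, 2 of 5 were higher (Rbp4 and Rdh10) and on day 7, 3 of 6 (Rdh10, Stra6 and Rarb), with 0 lower on any day. All of these day 3 and day 7 genes were under 50 CPM in sham, so they were ranked only through the day. On day 7, 42.2% of the 45 Rdh10 UMIs, 38.9% of the 18 Stra6 UMIs and 16.7% of the 24 Rarb UMIs lay in 1 cell per gene. Over all genes, 5.86%, 5.57% and 10% were called higher on days 1, 3 and 7. Of the Rbp4 UMIs of day 3, 51.2% lay in 1 cell, and its log2 ratio turned to -1.91 in cells with at most 3000 genes and to -0.40 after thinning to 1000 UMIs. Within cluster 1, 1 of 5 was higher on day 1 and 3 of 6 on day 7, beside 4.46% and 6.36% of its genes, and within cluster 2, 3 of 6 and 2 of 4, beside 7.25% and 11.3%. The 3 that did not pass on day 1 were Aldh1a1, which makes retinoic acid, with a log2 ratio of -0.43, and the retinol and retinal enzymes Rdh10 and Dhrs3, with 0.79 and 0.24. Cyp26b1, which degrades retinoic acid, was at 16.9 CPM in sham, 219 CPM on day 1, 2.23 CPM on day 3 and 0 CPM on day 7. Its 301 UMIs of day 1 came from 28 cells, and the ratio to sham was 12.9 (95% interval 5.87 to 35.5). It was thus seen on day 1 and almost absent on days 3 and 7. Rbp4, the retinol carrier, was at 36.7 CPM in sham, 350.1 CPM on day 1, 96.0 CPM on day 3 and 40.0 CPM on day 7, a day 1 ratio of 9.55 (5.53 to 18.1). Both day 1 calls held under all 16 settings. Stra6, the retinol uptake receptor, was at 8.46, 68.3, 42.4 and 65.5 CPM in sham and on days 1, 3 and 7. After thinning, 13.2% of day 7 endothelial cells had a Stra6 UMI against 4.08% of fibroblasts. On day 1 the shares were 4.83% and 5.62%. Cyp26b1 and Rbp4 led cluster 3 and Stra6 was among the leading genes of cluster 4.

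Some transporters and layer genes of the meninges were higher on day 3. Of 11 ranked genes of the meningeal solute carrier list, 2 were called higher and 1 lower on day 1, beside 5.86% and 8.23% of all genes. On day 3, 3 were higher and 0 lower, beside 5.57% and 4.41%. On day 7, 0 of 10 were called in either direction. In clusters 1 to 4 the day 3 count was 6 of 13, beside 8.87%. Slc22a6 was one of them, described above. Ptgds, a synthase and no transporter, was also on this list, at 21156, 28168, 24574 and 19164 CPM in sham and on days 1, 3 and 7. Sums over the list are thus not a level of transporters alone. Within cluster 1, the summed list, Ptgds included, was at 34734 CPM in sham and 18470, 57580 and 41812 CPM on the 3 days. There 0, 4 and 2 of 11 were higher, beside 4.46%, 8.3% and 6.36% of all genes, and 2, 0 and 0 lower. Of cluster 1 genes, 4.86% were lower on day 1. Within cluster 2, 3, 0 and 1 of 4 genes of the list were higher, beside 7.25%, 7.4% and 11.3%. Of the meningeal layer genes, 3 of 10 were called higher and 1, the laminin Lama2, lower on day 1, 3 of 10 were higher on day 3 and 2 of 11 on day 7, beside 5.86%, 5.57% and 10% of all genes. Within clusters 1 to 4, 5 of 10 were higher on day 3 and 4 of 12 on day 7, beside 8.87% and 10.3% of all genes. Crabp2, which carries retinoic acid to the nucleus, was at 39.5, 147, 89.3 and 76.5 CPM, and its day 1 ratio was 3.74 (2.18 to 6.96). S100a6, a calcium-binding protein, was at 1133, 2937, 1181 and 1824 CPM, with a day 1 ratio of 2.59 (2.34 to 2.88). Crabp2 was also a leading gene of cluster 3 and S100a6 of cluster 4. Fxyd5, a regulator of the sodium pump, was at 217, 260.0, 518 and 277 CPM, with a day 3 ratio of 2.39 (1.84 to 3.13) that held under all 16 settings. Endothelial cells carried Fxyd5 in a larger share, 68.7% against 24.7% of thinned fibroblasts on day 3.

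Some collagens and partners were called higher on day 7 in the summed UMIs. Of 12 ranked genes of the fibrillar collagen list, which leaves out the 5 markers, 7 were called higher and 1 lower on day 7. On that day 10% of all genes were higher and 4.8% lower. The list had a median log2 ratio of 1.05. Of the 7 higher genes, 4 were under 50 CPM in sham and ranked only through day 7. On day 1, 1 of 11 was higher and 2 were lower, beside 5.86% and 8.23% of all genes. On day 3, 0 of 10 were higher and 1 was lower, beside 5.57% and 4.41%. Col12a1, a collagen on the surface of fibrils, was at 161 CPM in sham, 115 CPM on day 1, 270.1 CPM on day 3 and 426 CPM on day 7. Its day 7 ratio was 2.65 (95% interval 1.92 to 3.70), and the call held under all 16 settings. Col5a2, a chain of the type V collagen inside fibrils, was at 90.2, 206, 96.0 and 295 CPM, with ratios of 2.28 (1.58 to 3.40) on day 1 and 3.27 (2.15 to 5.09) on day 7. Col6a1, of the type VI microfibrils, was at 192, 249, 169.6 and 386 CPM and fell short of the rule on every day.

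The day 7 rise depended on which cells were counted. In the 36 sham and 37 day 7 fibroblasts with at most 3000 genes, 1 gene of the fibrillar list was called higher in place of 7, and Col5a2 had a log2 ratio of 0.16 in place of 1.61. These cells held 48.9% of the sham and 46.3% of the day 7 fibroblast UMIs. Thinning every cell to 1000 UMIs, or averaging the CPM of single cells, also left 1 call on the list. Within cluster 2 the day 7 list median was 0.64 and within cluster 1 0.81, with 4 genes higher in each. Those were 4 of 12 and 4 of 8 ranked genes, beside 11.3% and 6.36% of all genes higher in clusters 2 and 1.

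**Figure D5:**
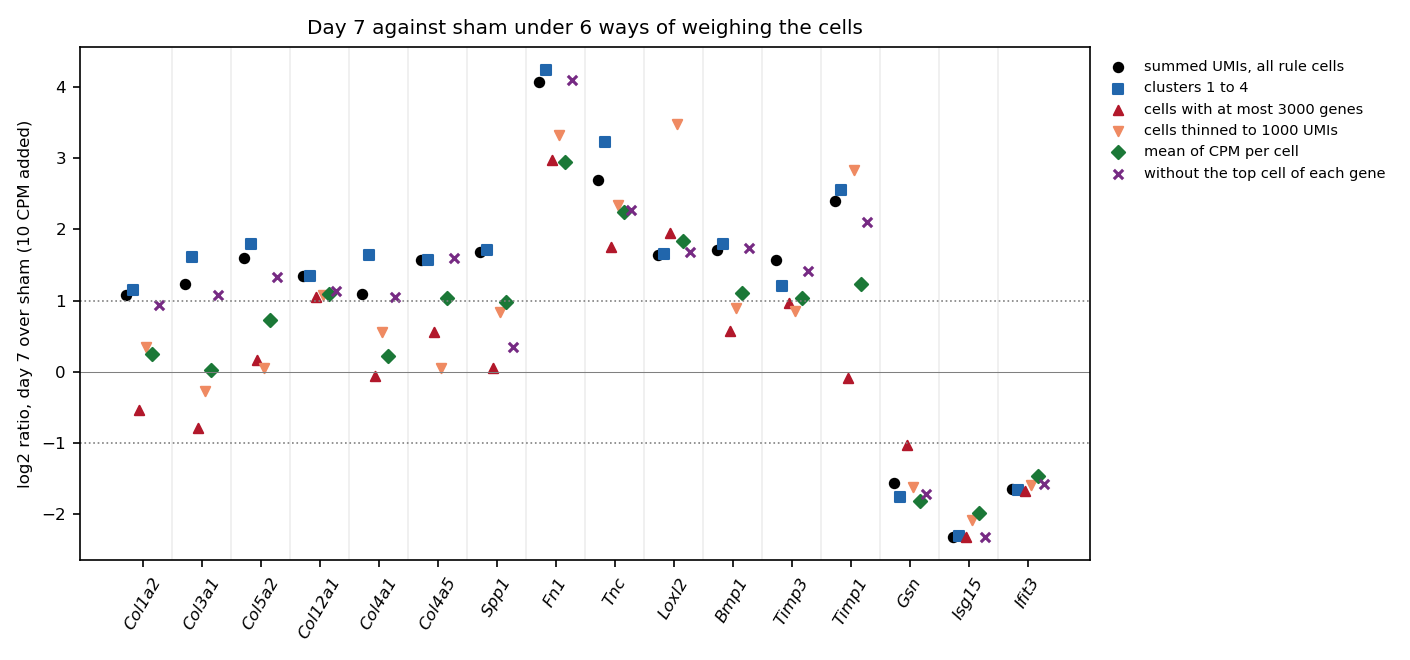
Log2 ratio of day 7 over sham (10 CPM added) for 16 genes, computed from the summed UMIs of all fibroblasts and under 5 other ways of choosing or weighing the cells, with dotted lines at 1 and -1. Fn1 and Col12a1 stayed above 1 and Isg15 and Ifit3 below -1 throughout, while Col5a2 ran from 0.05 in thinned cells to 1.79 in clusters 1 to 4. Col1a2 and Col3a1 are genes of the rule and are drawn as a description.

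The matrix glycoprotein, protease and collagen processing lists also had genes higher on day 7. Of 29 ranked matrix glycoproteins and proteoglycans, 11 were called higher and 2 lower on day 7. Of the 11, 7 were under 50 CPM in sham and ranked only through day 7. On day 1, 5 of 27 were higher and 3 lower, and on day 3, 3 of 23 were higher and 4 lower. Over all genes, 5.86%, 5.57% and 10% were higher and 8.23%, 4.41% and 4.8% lower on days 1, 3 and 7. The basement membrane list, the sheet that underlies vessels and the pia, had 2 of 13 higher on day 7 and 5 of 13 in clusters 1 to 4, where 10% and 10.3% of all genes were called higher. Clusters 1 and 2 gave different counts in both lists on day 7, a difference that was not tested. In cluster 1, 0 of 14 basement membrane genes were higher, with sums of 4071 CPM in sham and 3956 CPM on day 7, and 2 of 22 matrix glycoproteins were, with sums of 21476 and 17775 CPM. In cluster 2 the counts were 9 of 12 and 13 of 26. Over all genes, 6.36% were higher in cluster 1 and 11.3% in cluster 2. In the matrix glycoprotein list, 1 gene was lower in cluster 1 and 2 in cluster 2, beside 2.76% and 3.95% of all genes. Col4a1, the main collagen of the basement membrane, was at 549.8, 407, 399 and 1179.6 CPM in sham and on days 1, 3 and 7. Its day 7 ratio was 2.15 (1.79 to 2.58), but its log2 ratio was -0.05 in cells with at most 3000 genes. Col4a1 was at 376, 395, 428 and 1195 CPM in clusters 1 to 4. Col4a5 was at 87.4, 112, 100.4 and 280.3 CPM, with a day 7 ratio of 3.21 (2.09 to 5.04). The pericyte list stood at 959 CPM in sham and 1853 CPM on day 7 and the endothelial list at 2478 and 3451 CPM over the same cells, and their part in these collagen levels was not tested. In the list of matrix proteases and inhibitors, 6 of 14 were higher on day 7. Timp3, an inhibitor bound to the matrix, was at 1376, 1270.4, 1643 and 4092 CPM, a day 7 ratio of 2.97 (2.67 to 3.31). Of the collagen processing genes, 4 of 16 were higher on day 7, among them Loxl2, which crosslinks collagen (28.2, 56.7, 29.0 and 109 CPM), and Bmp1, the procollagen C-proteinase (14.1, 66.8, 55.8 and 69.2 CPM). In cells with at most 3000 genes, 3 of the matrix glycoproteins were called higher on day 7 in place of 11.

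A few genes that stood high in sham were lower on the days after occlusion. Gsn was at 4085 CPM in sham, 488 CPM on day 1, 676 CPM on day 3 and 1383 CPM on day 7. Its day 1, day 3 and day 7 ratios were 0.119 (95% interval 0.109 to 0.131), 0.166 (0.146 to 0.187) and 0.339 (0.302 to 0.379). Crispld2, a secreted glycoprotein, was at 372 CPM in sham, 39.2 CPM on day 1, 75.9 CPM on day 3 and 131 CPM on day 7, with a day 1 ratio of 0.105 (0.0753 to 0.146). All 6 of these calls held under each of 16 settings, and both genes stood highest in sham. Both were highest in cluster 2, where Gsn was at 11274 CPM in sham and 1268 CPM on day 1. In cluster 1 Gsn was at 588 and 411 CPM and passed the rule on no day. Mfap4, a protein of elastic microfibrils, was at 383, 115, 127 and 138 CPM, with a day 1 ratio of 0.299 (0.236 to 0.379). Igfbp5, which binds insulin-like growth factors, was at 992 CPM in sham, 171 CPM on day 1, 632 CPM on day 3 and 870.1 CPM on day 7. It passed the rule on day 1 only, with a ratio of 0.172 (0.145 to 0.203), and was lower in both cluster 1 and cluster 2 on that day. Col15a1, a collagen of basement membranes, was at 262, 74.1, 366 and 251 CPM and was lower on day 1, with a ratio of 0.283 (0.211 to 0.378).

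Chemokines went in different directions by day. Of the ranked chemokines, 3 of 8 were called higher and 3 lower on day 1, 0 of 8 higher and 4 lower on day 3, and 4 of 9 higher and 2 lower on day 7. Over all genes, 5.86%, 5.57% and 10% were higher and 8.23%, 4.41% and 4.8% lower. Ccl2, which draws monocytes, was at 251 CPM in sham, 1002 CPM on day 1, 29.0 CPM on day 3 and 1536 CPM on day 7. Its day 1 ratio of 3.99 (95% interval 3.22 to 5.01) rested on 58 cells with 11.4% of the UMIs in the top cell, and it held under all 16 settings. After thinning, 20.8% of day 1 fibroblasts had a Ccl2 UMI against 1.08% of endothelial cells. On day 7, 85.5% of its UMIs lay in 1 of 7 cells. On day 3 it was called lower, with a ratio of 0.116 (0.0593 to 0.208), but in cells without 2 markers of another type the log2 ratio was 0.48. Ccl11, which draws eosinophils, was at 33.8, 18.2, 42.4 and 331 CPM in sham and on days 1, 3 and 7. Its day 7 UMIs came from 6 cells, 44.0% of them in the top cell. Cxcl12, a chemokine that also guides cells along vessels, was at 668, 537, 1022 and 1052 CPM and passed the rule on no day over all fibroblasts.

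Over all fibroblasts, cytokine genes passed in both directions, and 1 complement gene on each day. In the cytokine and inflammatory list, 6 of 25 ranked genes were higher and 2 lower on day 1 and 4 of 22 higher and 2 lower on day 3. On day 7, 4 of 21 were higher and 1 lower. Over all genes, 5.86%, 5.57% and 10% were higher and 8.23%, 4.41% and 4.8% lower on days 1, 3 and 7. Within cluster 2, 11 of 22, 11 of 22 and 10 of 18 were higher and 0, 0 and 1 lower on the 3 days. Within cluster 1, 5 of 22, 1 of 20 and 4 of 21 were higher and 0, 5 and 1 lower. All genes had 7.25%, 7.4% and 11.3% higher in cluster 2 and 4.46%, 8.3% and 6.36% in cluster 1. Of cluster 1 genes, 4.74% were lower on day 3 and 2.76% on day 7, and of cluster 2 genes 3.95% on day 7. Socs3, an inhibitor of cytokine signalling, was at 1297 CPM in sham, 313 CPM on day 1, 417 CPM on day 3 and 528 CPM on day 7. It was called lower on all 3 days, with ratios of 0.241 (0.211 to 0.276), 0.322 (0.270 to 0.382) and 0.407 (0.335 to 0.492), and the day 1 and day 7 calls were lost in cells with at most 3000 genes. Socs3 was a leading gene of cluster 2, at 1805 CPM against 258.5 CPM in the other fibroblasts. Cluster 2 held 27.5% of the sham fibroblasts and 10.5% to 14.3% on the days, and its part in these ratios was not tested. Of the complement genes, 1 of 4 was higher on day 1, 1 of 5 on day 3 and 1 of 4 on day 7. In clusters 1 to 4, 2, 1 and 3 were, beside 7.95%, 8.87% and 10.3% of all genes. C4b, a component of the classical pathway, was at 31.0, 198, 84.8 and 54.6 CPM in sham and on days 1, 3 and 7, with a day 1 ratio of 6.39 (3.52 to 13.0). C4b thus stood highest on day 1. It was also a leading gene of cluster 3, at 841.5 CPM against 62.6 CPM in the other fibroblasts. Cluster 3 held 3 sham and 36 day 1 cells, and its part in the C4b ratio was not tested.

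Interferon response genes were among those called lower in the fibroblasts on each day. The 19 listed genes summed to 5861 CPM in sham, 2610.5 on day 1, 4325 on day 3 and 3236 on day 7. On day 1, 11 of 18 ranked genes were called lower, on day 3, 7 of 19 and on day 7, 8 of 18. Over all genes, 8.23%, 4.41% and 4.8% were called lower. Of the lower genes of the list, 7, 3 and 3 were under 50 CPM on the day, so they were ranked only through sham. No gene of the list was called higher on any of the 3 days. After thinning to 1000 UMIs, the counts of genes called lower were 8, 3 and 2. The medians were -1.34, -0.58 and -0.95 on the log2 scale. In clusters 1 to 4, 10 of 17, 6 of 19 and 9 of 18 were lower, and on day 3 2 genes were higher. Within cluster 1, 7, 7 and 3 of 14 were lower on the 3 days and 1 was higher on day 3. Within cluster 2, 11 of 17, 6 of 18 and 10 of 17 were lower and 1 was higher on day 3. The list's sum there went from 8239 CPM in sham to 7659.8 CPM on day 3. Over all genes, 7.34%, 3.55% and 4.27% were lower in clusters 1 to 4 on days 1, 3 and 7. The shares were 4.86%, 4.74% and 2.76% in cluster 1 and 5.85%, 4.24% and 3.95% in cluster 2. Shares of all genes called higher on day 3 were 8.87% in clusters 1 to 4, 8.3% in cluster 1 and 7.4% in cluster 2.

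Isg15, a ubiquitin-like protein induced by interferon, was at 744 CPM in sham, 185 CPM on day 1, 212 CPM on day 3 and 142 CPM on day 7, with ratios to sham of 0.249 (95% interval 0.209 to 0.297), 0.285 (0.223 to 0.361) and 0.191 (0.133 to 0.268). Ifit3, another interferon response gene of the list, was at 522 CPM in sham, 82.1 CPM on day 1, 112 CPM on day 3 and 160.2 CPM on day 7. All 6 calls of these genes held under each of 16 settings, and sham stood above every day. Rsad2, viperin, was at 67.7, 10.2, 15.6 and 3.64 CPM in sham and on days 1, 3 and 7, from 24, 14, 7 and 1 UMIs.

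Interferon genes were lower in other cells of the same libraries too. Endothelial cells were at 2013 CPM of Isg15 in sham and 204, 477 and 307 CPM on days 1, 3 and 7. They had 17, 8 and 12 of 19 list genes lower on the 3 days, where 4.12%, 1.16% and 0.889% of all their genes were. Pericytes had 17, 13 and 13 of 19, beside 4.79%, 5.16% and 3.25%. Cells with Prg4, Nov and Slc47a1 had 8 of 13, 4 of 16 and 5 of 14 lower, with 5 genes higher on day 3, beside 4.05%, 3.11% and 1.54% of all genes lower and 5.08% higher on day 3. The summed list was highest in sham in endothelial cells, pericytes and smooth muscle cells, as in the fibroblasts, and in the Prg4, Nov and Slc47a1 cells it was 5115 CPM in sham and 5264 CPM on day 3. Library and condition cannot be told apart.

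Promoters of these genes are shown because the list is known for one motif, the interferon-stimulated response element. RefSeq promoters (GRCm38.p6) were searched on both strands for the core of that element, 2 copies of GAAA with 2 bases of any kind between them, with overlapping matches counted, in windows from 250 bases before to 50 after the start. Of 19 list genes, 15 had a promoter there. The motif was in 8 of their 18 promoters (44.4%) and in 1131 of all 32851 promoters (3.44%). The 250 bases before the start are given 5′ to 3′ on the strand of the gene, with matches in capitals, at chr4:156200819-156201068 on the minus strand for Isg15, chr19:34583279-34583528 on the plus strand for Ifit3 and chr12:26456453-26456702 on the minus strand for Rsad2. A match is a description of the letters and not evidence of binding.
Isg15: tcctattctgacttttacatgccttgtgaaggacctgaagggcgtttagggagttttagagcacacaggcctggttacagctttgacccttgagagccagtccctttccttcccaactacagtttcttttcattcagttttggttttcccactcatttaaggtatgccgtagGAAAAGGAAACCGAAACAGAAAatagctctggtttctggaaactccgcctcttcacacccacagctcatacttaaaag
Ifit3: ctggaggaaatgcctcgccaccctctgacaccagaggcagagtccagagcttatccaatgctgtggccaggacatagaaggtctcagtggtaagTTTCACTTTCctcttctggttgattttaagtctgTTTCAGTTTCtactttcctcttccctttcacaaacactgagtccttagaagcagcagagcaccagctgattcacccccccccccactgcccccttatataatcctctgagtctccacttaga
Rsad2: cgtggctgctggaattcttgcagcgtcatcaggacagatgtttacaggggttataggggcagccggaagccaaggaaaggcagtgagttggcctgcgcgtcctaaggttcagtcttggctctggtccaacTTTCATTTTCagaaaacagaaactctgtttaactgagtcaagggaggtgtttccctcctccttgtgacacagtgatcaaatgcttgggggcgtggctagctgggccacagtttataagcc

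Immediate-early genes, the transcription factors switched on within minutes of a stimulus or of tissue dissociation, had their lowest summed level on day 3. The 17 genes summed to 29121 CPM in sham, 13139 on day 1, 11092 on day 3 and 26449 on day 7. On day 1, 6 of 16 were lower and 1 higher, on day 3, 11 of 16 were lower and 0 higher, and on day 7, 1 was lower and 3 were higher. Over all genes, 8.23%, 4.41% and 4.8% were lower and 5.86%, 5.57% and 10% higher on the 3 days. Fos was at 6242 CPM in sham, 2410.1 CPM on day 1, 2672 CPM on day 3 and 5730.3 CPM on day 7, with its lowest level on day 1. Jun, its partner, was at 4548 CPM in sham, 1275 CPM on day 1, 1286 CPM on day 3 and 3841 CPM on day 7, with a day 3 ratio of 0.283 (0.257 to 0.311). The Jun intervals were 4328 to 4775 CPM in sham and 1216 to 1336 CPM on day 1. Junb was at 4150.1, 1793, 1040 and 3328 CPM in the same order. These 3 genes were called lower on days 1 and 3 and did not pass the rule on day 7. Nr4a1, a nuclear receptor of the same list, went the other way, at 70.5, 216, 67.0 and 408 CPM, with ratios of 3.06 (2.03 to 4.81) on day 1 and 5.79 (3.72 to 9.32) on day 7 that held under all 16 settings.

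On day 3, the counts of lower immediate-early genes differed between clusters 1 and 2, a difference that was not tested. On day 1, 1 of 16 was lower and 1 higher within cluster 1, and 2 of 17 were lower and 1 higher within cluster 2. Over all genes of clusters 1 and 2, 4.86% and 5.85% were lower and 4.46% and 7.25% higher on that day. In cluster 1, all 16 ranked genes were lower on day 3, and their sum went from 28649 to 4029.7 CPM. In cluster 2, 4 of 17 were lower and 1 was higher, with a sum of 35775 CPM in sham and 26350 CPM on day 3. Over all genes, 4.74% in cluster 1 and 4.24% in cluster 2 were lower on day 3, and 7.4% in cluster 2 were higher. Of the neighbouring classes, pericytes had 14 of 16 lower on day 3 (5.16% of all their genes), while endothelial cells (1.16%), smooth muscle cells (0.496%) and the Prg4, Nov and Slc47a1 cells (3.11%) had 0.

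Some contractile and cytoskeletal genes of myofibroblasts, the scar-forming state of fibroblasts, were called higher on day 1 in the sum over clusters 1 to 4. There, 8 of 16 were called higher and 0 lower on day 1, 5 of 16 on day 3 and 5 of 16 on day 7, beside 7.95%, 8.87% and 10.3% of all genes called higher. These clusters differed in makeup between libraries, and within a cluster fewer genes were called on day 1, with 2 of 14 higher and 1 lower in cluster 1 and 3 of 14 higher in cluster 2, beside 4.46% and 7.25% of all genes called higher in the 2 clusters and 4.86% lower in cluster 1. Cluster 4 held 1 sham and 36 day 1 cells. Over all fibroblasts the counts were 3 of 16 on each day, with 1 lower on day 1, beside 5.86%, 5.57% and 10% of all genes higher and 8.23% lower on day 1. Vim, the intermediate filament vimentin, was at 705 CPM in sham, 2003 CPM on day 1, 1109 CPM on day 3 and 1081 CPM on day 7, and Lgals1, galectin 1, at 702 CPM in sham, 2350.5 CPM on day 1, 1558 CPM on day 3 and 917 CPM on day 7. The day 1 ratio of Lgals1 was 3.35 (2.94 to 3.82), and the Vim intervals were 620.2 to 798 CPM in sham and 1928 to 2079 CPM on day 1. Both also led cluster 4.

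Acta2, smooth muscle actin, was at 259 CPM in sham, 154 CPM on day 1, 1038 CPM on day 3 and 557 CPM on day 7 over all fibroblasts but at 26.9, 129, 247 and 128 CPM in clusters 1 to 4. Tagln, transgelin, was at 324, 383, 1053 and 623 CPM over all and at 57.6, 448, 149 and 317 CPM in clusters 1 to 4. Acta2 was thus lower in clusters 1 to 4 than over all fibroblasts in each library, as was Tagln except on day 1, and smooth muscle cells of the same libraries had 15564 to 19014 CPM of Acta2. Within clusters 1 to 4, both genes were called higher than sham on all 3 days.

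Further genes of fibroblast identity summed to 14122 CPM in sham, 12881 on day 1, 15567 on day 3 and 22677 on day 7. Of 17 to 18 ranked genes of the further identity list, 1 was called higher on day 1, 0 on day 3 and 4 on day 7, and 1, 1 and 0 were called lower. The 4 of 17 on day 7 stand beside 10% of all genes. Higher calls on days 1 and 3 stand beside 5.86% and 5.57%, and lower calls on the 3 days beside 8.23%, 4.41% and 4.8%. Apod, a lipid carrier, was at 4672 CPM in sham, 5558 CPM on day 1, 4702 CPM on day 3 and 10114 CPM on day 7, a day 7 ratio of 2.16 (2.04 to 2.30). Mgp, an inhibitor of calcification, was at 2949, 1944, 4455 and 6127 CPM in sham and on days 1, 3 and 7, with 46.9% of its day 7 UMIs in 1 cell. Serpinf1, an inhibitor of vessel growth, was at 925, 656, 444 and 491 CPM and was called lower on day 3. Inmt, a methyltransferase among the 10 identity genes, was at 144, 70.5, 277 and 335 CPM, and Moxd1, a monooxygenase, at 147, 181, 339 and 54.6 CPM. Moxd1 was called higher on day 3 and lower on day 7.

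The growth factor list gave calls on each day and the TGF-beta and BMP list few over all fibroblasts. Of the growth factors and their binding proteins, 4 of 17 were higher and 2 lower on day 1 and 2 of 14 higher on day 3. On day 7, 5 of 16 were higher and 1 lower. Over all genes, 5.86%, 5.57% and 10% were higher and 8.23%, 4.41% and 4.8% lower on days 1, 3 and 7. Ptn, the growth factor pleiotrophin, was at 5190.4, 3547, 4386 and 4576 CPM in sham and on days 1, 3 and 7 and passed on no day. In the TGF-beta and BMP list, 0 of 19 passed in either direction on day 1, 2 of 21 were higher and 2 lower on day 3, and 0 of 20 were higher and 2 lower on day 7. Within cluster 2, 6 of 20 of its genes were higher and 2 lower on day 7, beside 11.3% and 3.95% of all genes. Within cluster 1, 0 of 18 were higher and 1 lower, beside 6.36% and 2.76%. Cyr61, a matricellular target of mechanical signals, was at 496 CPM in sham, 289 CPM on day 1, 129 CPM on day 3 and 892 CPM on day 7, with a day 3 ratio of 0.261 (0.190 to 0.353). Id3, a target of BMP signalling, was at 3321, 2096, 2069 and 2468 CPM and passed on no day.

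Stress and metabolic lists had up to 3 genes higher on a day over all fibroblasts. Of the heat shock genes, 2 of 12 were higher on day 1, 3 of 13 on day 3 and 0 of 12 on day 7, against 5.86%, 5.57% and 10% of all genes. Within cluster 2, 4 of 13 heat shock genes and 4 of 13 glycolysis and hypoxia genes were higher on day 3, and within cluster 1 none of either list. Over all genes, 7.4% in cluster 2 and 8.3% in cluster 1 were higher on that day. Of the integrated stress response, 0 of 4 were lower on day 1, 1 of 4 on day 3 and 0 of 4 on day 7. In clusters 1 to 4, 1 was lower on day 1 (Ddit3) and 3 on day 3 (Atf5, Ddit3 and Ppp1r15a). Over all genes, 8.23%, 4.41% and 4.8% were lower on the 3 days. In clusters 1 to 4, 7.34% were lower on day 1 and 3.55% on day 3. Ppp1r15a, which restarts translation under stress, was at 355, 186, 112 and 258 CPM in sham and on days 1, 3 and 7, with a day 3 ratio of 0.314 (0.222 to 0.439). In the glycolysis and hypoxia list, 2 of 13 were higher and 2 lower on day 1. The metallothionein and oxidative stress list had 1 of 9 higher on day 1 over all fibroblasts. Within cluster 2, 6 of 11 were higher on day 1 and the list's sum went from 17594 CPM in sham to 40926 CPM. Within cluster 1, 0 of 8 were higher on day 1. Over all genes, 7.25% in cluster 2 and 4.46% in cluster 1 were higher on that day. Hmox1, of the oxidative stress list, was at 39.5, 171, 22.3 and 29.1 CPM, with a day 1 ratio of 4.32 (2.53 to 8.03) and 44.3% of the day 1 UMIs in 1 cell. Of 7 ranked genes of the ribosome biogenesis list, 0 were higher on any day over all fibroblasts and Odc1, which makes polyamines, was lower on day 3, with a ratio of 0.418 (0.274 to 0.627). Odc1 was also lower on day 3 in clusters 1 to 4, where Srm, a spermidine synthase, was higher, with a ratio of 3.80 (1.61 to 10.4).

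Of 21 listed cell cycle genes, 5 were ranked on day 1, of which 4 were called higher and 1 lower, beside 5.86% and 8.23% of all genes. The 4 were all under 50 CPM in sham and were ranked only through day 1. The 4 higher genes were Top2a, Cenpa, Birc5 and Ube2c. Top2a, the topoisomerase of dividing cells, had no UMI in sham, 70 on day 1, 1 on day 3 and 1 on day 7. Ube2c, an enzyme of mitotic exit, had 5 UMIs in sham and 114 on day 1, 62.3% of these in 1 cell. Cdkn1a, the cell cycle inhibitor p21 of the same list, was at 268, 67.6, 40.2 and 157 CPM in sham and on days 1, 3 and 7 and was the gene called lower, with 67.4% of its sham UMIs in 1 cell. On days 3 and 7, 1 gene of this list was ranked.

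Some of the largest changes lay mostly in the UMIs of single cells or were in genes known from other cell types. The part of other cell types in them was not tested. Hbb-bs, a hemoglobin chain of red blood cells, was at 14638 CPM in sham, 7.26 CPM on day 1, 719 CPM on day 3 and 21.8 CPM on day 7, and 99.2% of its sham UMIs lay in 1 cell. S100a8, a neutrophil protein, had 74.3% of its 300 day 1 UMIs in 1 cell. H19, an imprinted RNA, had all 48 of its day 7 UMIs in 1 cell, and Hamp, hepcidin, had 98.7% of its 76 day 3 UMIs in 1. Klk6, Cspg5 and S100b, genes of oligodendrocytes and their progenitors or astrocytes, were at 118, 149 and 211 CPM in sham and were lower on all 3 days, but in clusters 1 to 4 none of the 3 passed the rule on any day. Slco1a4, an organic anion transporter of brain vessels, was at 64.8, 175, 105 and 572 CPM in sham and on days 1, 3 and 7, while 86.7% of thinned day 7 endothelial cells had a UMI against 22.4% of fibroblasts.

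The remaining genes among the 8 largest rises and falls of each day are given by their levels. Abhd2, a lipid hydrolase, was at 45.1, 93.7, 266 and 102 CPM in sham and on days 1, 3 and 7, and Insig1, which holds back sterol synthesis, was at 16.9, 55.9, 109 and 18.2 CPM. Both were called higher on day 3 over all fibroblasts and in clusters 1 to 4. Cab39l, a partner of the kinase LKB1, was at 19.7, 61.7, 114 and 32.8 CPM, with 49.0% of its day 3 UMIs in 1 cell, and did not pass in clusters 1 to 4. Ackr1, a decoy receptor for chemokines on venules, had no UMI in sham and 103 on day 3, 64.1% of them in 1 cell. Slc7a5, an amino acid transporter, was at 11.3, 57.4, 49.1 and 127 CPM. Smoc2, a calcium-binding matrix protein, was at 5.64, 34.1, 11.2 and 127 CPM, with 2 UMIs in sham and a day 7 ratio of 22.6 (5.81 to 194). Fndc5, the precursor of irisin, was at 113, 26.1, 26.8 and 0 CPM, highest in sham, and S100a9, the partner of S100a8, was at 0, 198, 295 and 0 CPM. On day 3, 75.8% of the S100a9 UMIs lay in 1 cell, and in clusters 1 to 4 both genes were at 19.6 CPM from 5 UMIs each and neither was called.

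Gm42418, a gene model that overlaps ribosomal RNA, was lower on all 3 days. It was at 7621 CPM in sham, 809 CPM on day 1, 1781 CPM on day 3 and 3571 CPM on day 7. Endothelial cells were at 9665 CPM in sham and 1053, 1823 and 4611 CPM on days 1, 3 and 7. The order of the 4 libraries was the same in both cell types, and library and condition cannot be told apart.

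The fibroblasts were set beside the 523 kept cells that held a UMI of more than 1 of Prg4, Nov and Slc47a1, whatever their count of collagen markers. Igfbp5 in those 523 cells was at 809 CPM in sham and 1761 CPM on day 1, where the fibroblasts went from 992 to 171 CPM. The fibrillar list gave 0 of 6 genes higher in them on day 7 (5.2% of all their genes), against 7 of 12 in the fibroblasts (10%). Whether these differences exceed those between mice was not tested.

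Changes in the summed fibroblasts were also read within clusters 1 and 2. Of 124 called changes of the genes named from the lists and rules, 37 were also called in the same direction within cluster 1 and 69 within cluster 2. In cluster 1, 19 had the opposite sign and 1 the opposite call, and in cluster 2, 13 and 1. These clusters hold 7 to 51 cells per library, fewer than the summed fibroblasts, and the part of this in missing calls was not tested. Clusters 3 and 4 had too few sham cells, 3 and 1, for the same comparison.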

How the data were processed

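Single cells of 4 libraries, 1 each for sham and for days 1, 3 and 7 after occlusion, were analysed from the gene-by-cell UMI counts that the authors deposited. The file headers name Cell Ranger 4.0.0, whereas the study's methods and the submitters' processing notes name Cell Ranger 3.0.1, Seurat 4.1.2 and GRCh38. The gene identifiers in the files are mouse (31053 genes), and the build behind the counts is not given in the sources used here. The study filtered cells at 200 to 3000 genes. That limit kept 44360 cells (273 fibroblasts) here, fewer than the total in its methods, so the limits of the fibroblast rule were used, which are 200 to 6000 genes and no more than 10% mitochondrial UMIs. No column of per-sample values was left unused (0).

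Members, gene lists and tests were chosen with earlier results of these data known. Counts were summed over the fibroblasts of a library and given as CPM of their own total. Where several rows shared a symbol (71 rows), rows were kept apart by gene identifier, and the one with the most UMIs kept the symbol. Doublets were called by Scrublet and kept. Fibroblasts were clustered by the Leiden method without the genes of the rule. A call needed a log2 ratio of at least 1 with 10 CPM added, a ratio interval without 1, and 50 CPM on the day or in sham. Intervals were Clopper-Pearson for shares, exact Poisson for CPM and exact conditional for ratios, at 95%, and cover counting error only. With 1 library per group there was no test. A gene without a UMI in a library was compared with a floor of 3 UMIs. For shares of cells with a UMI, each cell was thinned to 1000 UMIs, which left out 8 fibroblasts of day 1 and 3 of day 3.

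Named genes were the 5 markers, the 10 identity genes, the 8 largest rises and 8 largest falls a day among called genes with at least 100 CPM and no other class above 5 times the fibroblast level, and up to 4 genes a list by level and change. Birc5 and the genes that led the clusters were named after their values were seen. A few genes of the lists and tests are not reported here. Alternatives changed the cell filters, thinning, scaling, added CPM and level limits. The scripts were tested on simulated data. Versions were Python 3.11.15, numpy 2.4.6, scipy 1.17.1, pandas 2.3.3, scanpy 1.11.5, leidenalg 0.10.2 and matplotlib 3.10.9.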

Additional observations from a re-analysis of the deposited data

How the results depend on the processing

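Each count of called genes was recomputed under 16 other settings, of which 2 (clusters 1 to 4 only, and without the top cell of each gene) were chosen after seeing the data. Of 124 called changes of named genes, 43 kept their call under every planned setting and 42 under all. Over all fibroblasts, 225 genes were higher and 316 lower on day 1, 226 and 179 on day 3, and 435 and 208 on day 7. The interferon list had 11, 7 and 8 genes lower on days 1, 3 and 7, the myofibroblast list 3 and the retinoic acid list 4 higher on day 1, and the fibrillar list 7 and the matrix glycoprotein list 11 higher on day 7. Of 28 shares of kept cells, 12 moved beyond their counting interval, and of 44 shares with a UMI, 19 moved at 2000 UMIs and 34 without thinning. With 1 library per group no replicate could be left out, and no paired analysis was possible because each group has 1 library. The cause of each difference below was not tested.

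Thinning to 1000 UMIs gave 140 genes higher on day 1 and 115 higher and 94 lower on day 7, 3 and 2 interferon genes lower on days 3 and 7, and 1 fibrillar and 2 matrix glycoprotein genes higher on day 7. It turned the log2 ratio to -0.26 for Col3a1 on day 7, and on day 3 to -0.40 for Rbp4, -1.05 for Bmp1 and -0.40 for Cab39l. Median-ratio size factors, which shift all genes by 0.18, -0.05 and -0.13 on the log2 scale on days 1, 3 and 7, gave 338 higher and 205 lower on day 1, 275 higher on day 7 and 4 fibrillar genes higher. With 50 CPM added, 112 and 98 genes were higher and lower on day 1, 64 and 65 on day 3 and 111 and 84 on day 7, with 7 and 3 interferon genes lower on days 1 and 3 and 2 fibrillar and 6 matrix glycoprotein genes higher on day 7. A limit of 20 CPM gave 374 and 492 genes on day 1, 420 and 278 on day 3 and 330 lower on day 7. A limit of 200 CPM gave 91 and 87, 54 and 54, and 83 and 52, with 5, 4 and 5 interferon genes lower and 3 fibrillar and 5 matrix glycoprotein genes higher.

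Without the top cell of each gene, 194 genes were lower on day 1 and 4 fibrillar genes higher on day 7, and the log2 ratio turned to 1.47 for Hbb-bs on day 3, 1.57 for Klk6 on day 1 and 0.043 for Cspg5 on day 1. In cells with at most 3000 genes, 387 genes were higher on day 3, and 1 fibrillar and 3 matrix glycoprotein genes on day 7. There the log2 ratio turned on day 7 to -0.53 for Col1a2, -0.79 for Col3a1, -0.46 for Mgp, -0.054 for Col4a1 and -0.085 for Timp1, on day 3 to -0.78 for Crabp2, -1.91 for Rbp4, 0.97 for Klk6 and 1.54 for Cspg5, and on day 1 to 0.042 for S100b, 2.81 for Klk6 and 1.53 for Cspg5. Leaving out cells with 2 markers of another cell type gave 382 genes higher on day 3, 4 interferon genes lower on day 3, 5 myofibroblast and 2 retinoic acid genes higher on day 1, and 2 fibrillar and 5 matrix glycoprotein genes higher on day 7. It turned the log2 ratio to -0.76 for Mgp, -0.34 for Spp1 and -0.37 for Acta2 on day 7, 0.48 for Ccl2 on day 3, and -0.30 for S100a8 and 0.49 for Klk6 on day 1. In clusters 1 to 4, 360 genes were higher on day 3 and 8 myofibroblast genes on day 1, with log2 ratios of 0.44 for Klk6 and 0.11 for Cspg5 on day 1 and 0.018 for Cspg5 on day 3. With at least 4 of 5 markers, 8 myofibroblast genes were higher on day 1. The mean CPM per cell gave 1 myofibroblast gene higher on day 1, and 1 fibrillar and 5 matrix glycoprotein genes on day 7.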
